A study of Homo sapiens with 18 samples.

Results

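The genes described here encode the proteins of the cytosolic ribosome. They were chosen by name alone: every probe other than a control spot whose gene name on the array was RPL or RPS followed by a number, with or without a final A or X, or RPLP0, RPLP1 or RPLP2. This gave 76 of 36204 gene names, measured by 169 of 50599 probes and 187 of 58717 spots. Of these 76 members, 43 belong to the large subunit, 30 to the small subunit and 3 to the stalk of the large subunit. Total RNA came from HT29, a human colorectal adenocarcinoma cell line, and from HTOXAR3, a line derived from HT29 that acquired resistance to oxaliplatin (OXA). Cells of each line were left untreated, treated for 24 h with OXA, or treated for 24 h with OXA and 10 µM Curcumin together. The OXA dose was the IC50 of each line, 10 µM in HT29 and 30 µM in HTOXAR3, so the responses of both lines are responses to unequal doses. Each of the 6 groups was measured on 3 one-colour Agilent arrays, which the labels call biological replicates, 18 arrays in all. None of the 18 samples had Curcumin alone, and resistance is represented by a single derived line, so a difference between the lines cannot be told apart from any other property of that line.

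All arrays correlated with each other at 0.9711 or more over the normalized probes, and between 52.4% and 63.6% of the spots of an array stood well above background. At most 1 of the 58717 spots of an array was saturated. Of 10 colorectal epithelial markers 8 were above background on all 18 arrays, with CDX2 on 10 arrays and CEACAM5 on 16. Of 9 markers of blood, vessel and stromal cells, PTPRC, CD68, VWF and CDH5 were above background on all 18 arrays and COL1A2 on none.

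A ribosome has a small subunit, which reads the messenger RNA, and a large subunit, which joins the amino acids. Nearly all of their proteins are present once per ribosome, and cells make them in step with each other and with ribosomal RNA. Most of the messenger RNAs start with a C followed by a run of pyrimidines, the terminal oligopyrimidine (TOP) motif, through which the mTOR pathway and LARP1 control their translation and stability. When ribosome assembly fails, free RPL5 and RPL11, joined with 5S ribosomal RNA, bind the ubiquitin ligase MDM2. OXA is a platinum drug that binds DNA and is known for disturbing ribosomal RNA synthesis.

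The starts of the transcripts are shown for the members on which the results turn, because they show the feature the family shares. Each line gives 30 bases of the transcribed strand from RefSeq (GRCh38.p14), 15 before the annotated start and the rest from it on, with the pyrimidine run in capitals.
RPL3 (chr22:39319609-39319638, minus strand): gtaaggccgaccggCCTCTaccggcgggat
RPL27A (chr11:8682777-8682806, plus strand): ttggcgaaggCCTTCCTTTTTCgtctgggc
RPL10A (chr6:35468386-35468415, plus strand): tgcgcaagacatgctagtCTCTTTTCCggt
RPS9 (chr19:54200843-54200872, plus strand): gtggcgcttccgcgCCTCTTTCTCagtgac
RPL34 (chr4:108620561-108620590, plus strand): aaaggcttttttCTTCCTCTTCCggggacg
RPL36 (chr19:5690280-5690309, plus strand): ccgcgcggcgccagCCCTTCCgccacggcc
RPS6 (chr9:19380222-19380251, minus strand): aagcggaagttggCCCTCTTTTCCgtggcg
RPLP0 (chr12:120201097-120201126, minus strand): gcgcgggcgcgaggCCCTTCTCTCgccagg
The search asked for a C followed by at least 4 bases of C or T, on the transcribed strand only, with its first base within 5 bases of the annotated start. Of the 61 members with a RefSeq start in the table used, 52 (85.2%) held such a run, against 6886 of 27305 symbols (25.2%); the other 15 members had no entry. A gene with several annotated starts counted where 1 of them held the run, and of the 2 starts of RPL34 only the one shown did. The 6 members that passed the test after OXA in HT29 all held it, as did RPS6 and RPLP0, which did not pass, so the run did not set the called members apart. A match of letters is a description of the sequence, not evidence that it acts.

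A member is called changed below where limma gave a Benjamini-Yekutieli (BY) adjusted p under 0.05 over all 36204 gene names and a fold change above 1.2. Differences are in log2 units, with the standard error (SE) of the fit, and the brightest probe stands for each gene. All signals are quantile-normalized unless said otherwise. The study labelled a fixed amount of total RNA for each array, so a signal reflects a transcript's share of that RNA. Neither the number of cells nor the RNA per cell can be read from it, on any of the scalings below.

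After OXA in HT29, 6 of the 76 members (7.89%) were called, all lower, against 15.9% of all gene names. After OXA in HTOXAR3, 4 members (5.26%) were called, all lower, against 10.2% of all names. With OXA plus Curcumin, 9 members (11.8%) were called lower in HT29 and 6 (7.89%) in HTOXAR3, where 18.6% and 17.5% of all names were called in either direction. Adding Curcumin to OXA gave 0 called members in HT29 and 1 in HTOXAR3, against 5.53% and 8.83% of names. The untreated lines differed in 1 member, against 11.5% of names. For the difference between the lines in their response to OXA or to the combination, 0 members were called by limma with BY adjustment and 0 with Benjamini-Hochberg adjustment, against 1.01% and 0.856% of names with BY; 5 and 4 members had an unadjusted p under 0.05. With quantile normalization and the brightest probe the members' shares were below the share of all names in each of these 9 comparisons, and no member was called higher in any of them. When each gene's probes were averaged, 10 (13.2%) and 7 (9.21%) members were called after OXA in HT29 and HTOXAR3, against 14.3% and 9.22% of names, and 16 (21.1%) and 11 (14.5%) after the combination, against 17% and 16.2%, so the share for the combination in HT29 was then above that of names. Other scalings gave other shares, as described after the plot of member differences. Fitted on the arrays of the compared groups alone, only RPL3 and RPL27A (2.63% of members) were called in each OXA and combination comparison, and no member in the others. In those fits 3.7% and 1.64% of all names were called after OXA in HT29 and HTOXAR3, and 5.68% and 8.32% after the combination.

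Most members moved little on this scale. Quantile normalization gives every array the same set of values, so probes at the top of the range have little room to move. RPS2 probe A_23_P106708 gave 0 in the basal and both OXA comparisons. How far the small differences of the members come from this was not tested. The median absolute difference over the 76 members was 0.07 after OXA in HT29 and 0.058 in HTOXAR3, where it was 0.23 and 0.22 over all gene names. It was 0.12 to 0.17 over the 718 other names with a mean log2 signal over 15 in the same comparisons, the part of the intensity range in which 75 of the 76 member probes lie. Large-subunit members had a median of -0.14 after the combination in HT29 and small-subunit members -0.081, a difference that was not tested.

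**Figure D1:**
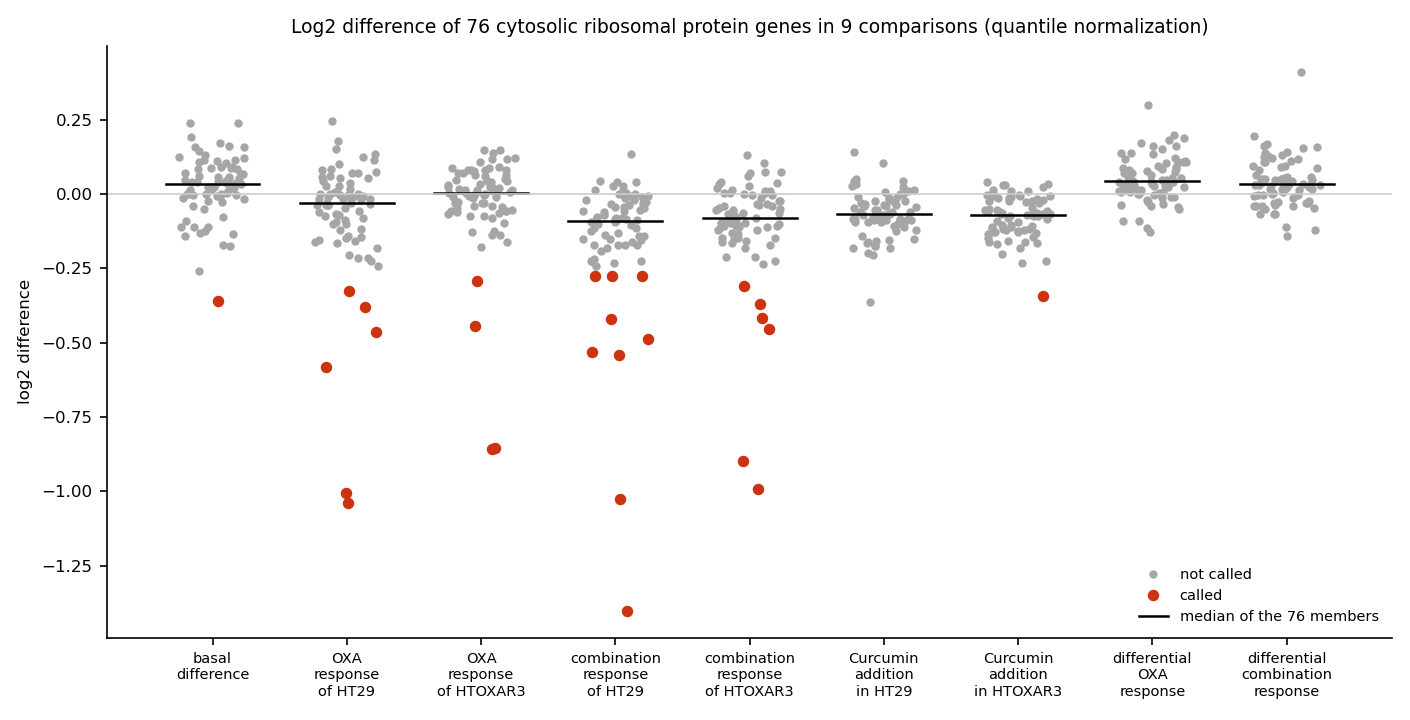
The log2 difference (y axis) of each of the 76 members in each of the 9 comparisons (x axis), after quantile normalization. Red points passed the test and grey points did not, and black lines are medians over members; the called members all lie below 0, and the medians lie between -0.093 and 0.042, and at least 1 other scaling turned the sign of the median in the basal comparison and in both OXA and both combination comparisons.

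The number of called members depended on how the arrays were scaled to each other. After OXA in HT29, 6 members were lower with quantile normalization, 52 with the Feature Extraction processed signal set to the 75th percentile of each array, 52 with background-corrected signal set to the 75th percentile, and 1 with each array set to its spike-in RNA, a scaling chosen after the data were seen. In HTOXAR3 the same 4 scalings gave 4, 13, 14 and 0 members. After the combination they gave 9, 52, 46 and 2 in HT29, and 6, 25, 24 and 0 in HTOXAR3. With the processed signal the members' shares after OXA were 68.4% in HT29 and 17.1% in HTOXAR3, against 16.9% and 11.7% of all names, and after the combination 68.4% and 32.9%, against 19.7% and 17.9%. With background-corrected signal at the 75th percentile they were 68.4% and 18.4% after OXA, against 15.7% and 9.96% of names, and 60.5% and 31.6% after the combination, against 18.4% and 16.8%. Both of these scalings thus put the members' share above that of all names in the 4 comparisons of treated with untreated cells, where quantile normalization put it below. With the spike-ins 1.32% and 0% of members were called after OXA, against 17.4% and 14.7% of names, and 2.63% and 0% after the combination, against 11.9% and 12.2%. The median over members after OXA in HT29 was -0.032, -0.33, -0.33 and 0.19, and in HTOXAR3 0.0029, -0.18, -0.17 and 0.32, so the sign of the family's shift in these data is set by the scaling. Spike-in scaling moved everything: the median over all names after OXA was 0.43 in HT29 and 0.48 in HTOXAR3, and the names called lower and higher in HT29 went from 2758 and 3016 to 289 and 6014, and in HTOXAR3 from 1788 and 1921 to 87 and 5240.

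Relative to the median of all names detected on all 18 arrays, the members' median difference after OXA in HT29 was -0.30, -0.29 and -0.29 with the processed signal, the 75th percentile and the spike-ins, but -0.016 after quantile normalization. In HTOXAR3 it was -0.16 with each of the first 3 and 0.0053 after quantile normalization. A scaling that moves a whole array by 1 constant cancels in such a distance, so the 75th percentile and the spike-ins of the same background-corrected signal give the same value by construction and are not separate checks. The quantile value had the same sign in HT29 and not in HTOXAR3. The distance also depends on the reference: from the median of all names, instead of the detected ones, the members lay in HTOXAR3 at 0.017 with the processed signal and at -0.16 with both scalings of the background-corrected signal. The 718 other bright names moved less than the members with the processed signal after OXA, with medians of -0.15 in HT29 and -0.068 in HTOXAR3.

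The same distance can be read on each array before any normalization. The median log2 signal of the members exceeded that of the detected names by 8.32 to 8.38 on the untreated HT29 arrays, by 7.97 to 8.11 after OXA and by 8.06 to 8.07 after the combination. On the untreated HTOXAR3 arrays it was 8.22 to 8.34, after OXA 8.08 to 8.13 and after the combination 8.02 to 8.08. Untreated and treated arrays did not overlap in either line before normalization, and after quantile normalization the OXA arrays of HTOXAR3 overlapped the untreated ones. Whether this reflects the RNA or the response of the scanner at high signal was not tested.

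**Figure D2:**
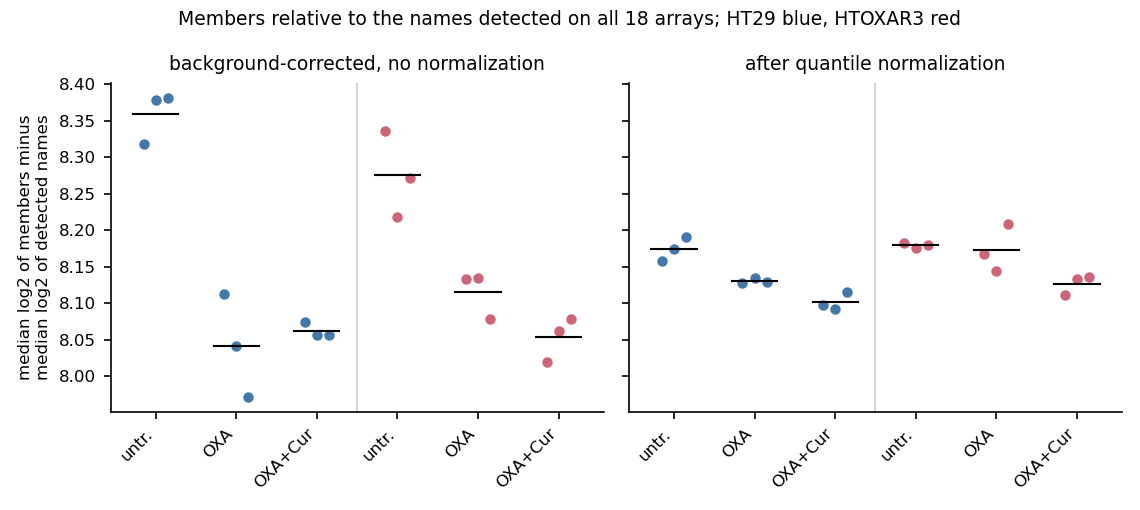
Median log2 signal of the 76 members minus that of the names detected on all 18 arrays (y axis), for each array (dots) and group mean (lines), before normalization on the left and after quantile normalization on the right. The untreated arrays lie at 8.22 or more on the left and the treated ones at 8.13 or less, while on the right the groups lie closer together.

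With the brightest probe of each gene, RPL3 and RPL27A gave the largest differences in the family. A dimmer RPS29 probe, described below, fell further after OXA (-1.41 in HT29 and -1.45 in HTOXAR3). RPL3 is a large-subunit protein that reaches close to the peptidyl transferase centre. Its log2 signal in HT29 was 17.45, 17.49 and 17.68 on the untreated arrays, 16.43, 16.57 and 16.60 after OXA, and 16.53, 16.44 and 16.56 after the combination. In HTOXAR3 it was 17.60, 17.54 and 17.65 untreated, 16.70, 16.86 and 16.67 after OXA, and 16.72, 16.68 and 16.69 after the combination. Every treated array was thus lower than every untreated array of its line, and the 2 treatments overlapped. RPL3 fell by 1.00 after OXA in HT29 (SE 0.075, adjusted p = 2.38e-06) and by 0.85 in HTOXAR3 (SE 0.075, adjusted p = 2.9e-05). With the spike-in scaling these values were -0.75, still called, and -0.48, not called.

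The array holds a second RPL3 probe, from another stretch of the transcript, and both cross an exon junction. Their sequences are given because agreement between separate stretches is the check on a single probe that these data allow (array coordinates on GRCh37, minus strand).
RPL3 A_23_P68942 (chr22:39710186-39710722): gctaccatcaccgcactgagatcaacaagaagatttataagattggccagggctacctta
RPL3 A_24_P766208 (chr22:39709699-39710135): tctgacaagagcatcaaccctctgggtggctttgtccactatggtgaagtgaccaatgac
The second probe gave -1.01 after OXA in HT29 and -0.86 in HTOXAR3, close to the values of the first probe. Within the slides that held arrays of both groups, the first probe gave -1.02, -0.92 and -1.08 in HT29 and -0.87 and -0.89 in HTOXAR3.

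RPL27A, another large-subunit protein, had a single probe (A_23_P416305, chr11:8711092-8711151 on GRCh37, plus strand), whose mean signal of 6.92 is the only member signal used here that lies under 10. RPL27A thus had no brighter probe to compare. For RPS29, RPL37 and RPS14, described below, a dimmer probe was called lower after OXA and the brightest was not. In the following, values of RPL27A are those of its dim probe. In HT29 RPL27A read 7.70, 7.81 and 7.79 untreated, 6.54, 6.77 and 6.88 after OXA, and 6.44, 6.28 and 6.38 after the combination. In HTOXAR3 it read 7.52, 7.51 and 7.50 untreated, 6.72, 6.57 and 6.66 after OXA, and 6.44, 6.54 and 6.56 after the combination. The 3 groups of each line did not overlap. RPL27A fell by 1.04 after OXA in HT29 (SE 0.082, adjusted p = 4.12e-06) and by 0.86 in HTOXAR3 (SE 0.082, adjusted p = 6.2e-05). After the combination it fell by 1.40 in HT29 and by 0.99 in HTOXAR3 (adjusted p = 2.04e-07 and 6.09e-06). Adding Curcumin to OXA in HT29 gave -0.36, which was not called with BY (adjusted p = 0.102) and was called with Benjamini-Hochberg adjustment. Scaled to the spike-ins, RPL27A gave -0.48 and -0.41 after OXA in HT29 and HTOXAR3 and -0.61 after the combination in HTOXAR3, none of them called, and -0.99 after the combination in HT29, still called.

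RPL10A, at the L1 stalk, and RPS9, a small-subunit protein bound early in assembly, were called in the same 4 comparisons with a treatment against untreated cells. RPL10A in HT29 read 17.95, 17.92 and 17.93 untreated and 17.33, 17.34 and 17.39 after OXA, and in HTOXAR3 18.08, 18.07 and 18.12 untreated and 17.64, 17.65 and 17.65 after OXA. It fell by 0.58 in HT29 and by 0.44 in HTOXAR3 (SE 0.050 in both, adjusted p = 8.14e-06 and 0.000236), with no overlap. The second probe of RPL10A gave -0.66 and -0.53. The first gave -0.36 and -0.11 with the spike-in scaling, not called, and -0.88 in HT29 with either 75th percentile. Its probes are shown as the second case of agreement between separate stretches (GRCh37, plus strand).
RPL10A A_23_P251593 (chr6:35438429-35438488): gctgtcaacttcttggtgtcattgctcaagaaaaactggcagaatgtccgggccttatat
RPL10A A_32_P62008 (chr6:35438062-35438121): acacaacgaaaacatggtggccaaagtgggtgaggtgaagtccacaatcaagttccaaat
RPS9 read 16.70, 16.64 and 16.64 in untreated HT29 and 16.19, 16.16 and 16.23 after OXA, a fall of 0.46 (SE 0.050, adjusted p = 7.98e-05). In HTOXAR3 it read 16.65, 16.65 and 16.54 untreated and 16.30, 16.34 and 16.30 after OXA, a fall of 0.29 (SE 0.050, adjusted p = 0.00798). Its other probe gave -0.53 and -0.45. The HTOXAR3 call of RPS9 was lost at -0.28 without untreated replicate 1 or without untreated replicate 2 of HTOXAR3, and its value turned to 0.048 with the spike-in scaling, which gave -0.14 in HT29, not called; with the 75th percentile of either signal it was -0.47 and -0.44 in HTOXAR3.

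RPL34 and RPL36, both of the large subunit, passed after OXA in HT29 and not in HTOXAR3. RPL34 read 17.30, 17.27 and 17.27 in untreated HT29 and 16.86, 16.91 and 16.93 after OXA, a fall of 0.38 (SE 0.052, adjusted p = 0.000778). In HTOXAR3 its arrays read 17.31, 17.28 and 17.28 untreated and 17.14, 17.07 and 17.12 after OXA, a difference of -0.18 (adjusted p = 0.285). The other RPL34 probe (A_24_P188878) gave -0.21 in HT29 and -0.24 in HTOXAR3, neither called. Its difference between the lines was -0.026. RPL36 read 16.01, 15.95 and 15.99 in untreated HT29 and 15.65, 15.68 and 15.64 after OXA, a fall of 0.33 (SE 0.054, adjusted p = 0.00362), whereas in HTOXAR3 it read 16.08, 16.08 and 16.11 untreated and 15.99, 16.08 and 16.11 after OXA, which overlapped. The difference between the lines itself was 0.20 for RPL34 (SE 0.074, adjusted p = 1) and 0.30 for RPL36 (SE 0.076, adjusted p = 0.567), so neither line's response was shown to differ from the other's. With the spike-in scaling the HT29 value of RPL36 turned to 0.077, and that of RPL34 was -0.080 and not called, where the 75th percentile of either signal gave -0.59 and -0.60 for RPL34.

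**Figure D3:**
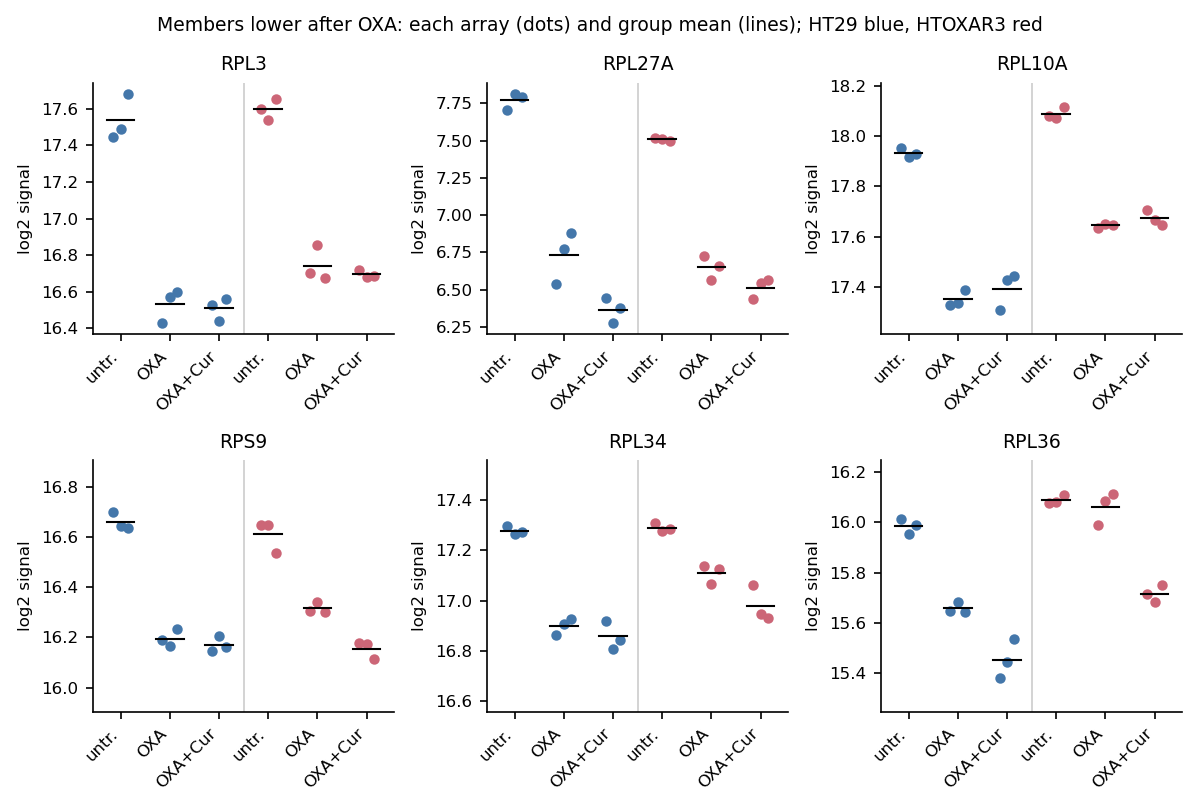
Log2 signal after quantile normalization (y axis, not starting at 0) of the 6 members called after OXA in HT29, on each of the 18 arrays (dots) with group means (lines), untreated, with OXA and with OXA plus Curcumin. The treated arrays of RPL3, RPL27A, RPL10A and RPS9 lie below the untreated ones in both lines, and RPL36 in HTOXAR3 lies lower after the combination; with the spike-in scaling the sign of RPL36 after OXA in HT29 and of RPS9 after OXA in HTOXAR3 turned.

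Member by member, both lines gave similar responses to OXA, although their doses differed and the comparisons share no arrays. Over the 76 members the log2 responses had a Pearson correlation of 0.943 and a Spearman correlation of 0.826, and over the 70 members called in neither line 0.789 and 0.79. The 4 members called in HTOXAR3 were all among the 6 called in HT29. These correlations are across genes, which are not independent of each other, and all points share the same arrays.

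After the combination with Curcumin, with quantile normalization, the called members included those of OXA alone. In HT29 the 9 were RPL27A, RPL3 (-1.03), RPL10A (-0.54), RPL36 (-0.53), RPS9 (-0.49), RPL34 (-0.42), RPL26, RPL4 and RPL17 (each -0.28). RPL26 read 17.45, 17.46 and 17.53 untreated and 17.17, 17.22 and 17.21 after the combination (SE 0.054, adjusted p = 0.0112). RPL4 read 17.01, 17.07 and 17.09 untreated and 16.77, 16.80 and 16.78 after it (SE 0.049, adjusted p = 0.0062). RPL17, which forms part of the exit tunnel together with RPL4, read 16.78, 16.80 and 16.76 and then 16.56, 16.50 and 16.46 (SE 0.059, adjusted p = 0.025). None of these 3 was called without untreated replicate 3 of HT29, where RPL26, RPL4 and RPL17 came to -0.25, -0.26 and -0.29, which left 6 called members. RPL17 was also lost without any other single array of the untreated or combination groups of HT29 except combination replicate 1 (-0.25 to -0.27), and RPL26 without that one (-0.26). The call of RPL17 was lost as well with the slide as a block (-0.28) and with the mean of all its probes (-0.23). With the 75th percentile of either signal RPL26, RPL4 and RPL17 lay between -0.49 and -0.43, all called. In HTOXAR3 the 6 called members were RPL27A, RPL3 (-0.90), RPS9 (-0.46), RPL10A (-0.42), RPL36 (-0.37) and RPL34 (-0.31). After the combination, only RPL3 and RPL27A in HT29 were called with the spike-in scaling.

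Relative to OXA alone, Curcumin changed a single member in HTOXAR3. RPL36 read 15.71, 15.68 and 15.75 after the combination against 15.99, 16.08 and 16.11 after OXA, a fall of 0.35 (SE 0.054, adjusted p = 0.00473), with no overlap; the spike-in scaling gave -0.44, not called. In HT29 the same comparison gave -0.20 (adjusted p = 0.244), and no member was called by limma with BY adjustment, against 1 with Benjamini-Hochberg adjustment and 15 at an unadjusted p under 0.05. Of the 76 members 63 in HT29 and 68 in HTOXAR3 lay below 0 in this comparison, with medians of -0.068 and -0.071, where the medians over all names were -0.022 and -0.022; these counts were 41 and 58 with the processed signal, 38 and 56 with the 75th percentile of the background-corrected signal and 74 and 76 with the spike-ins. The combination and OXA-alone comparisons share the untreated arrays, so their lists are not independent.

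RPL5, RPL11, RPL23, RPS6 and RPS27A have known links to signalling or to ubiquitin, and their brightest probes were not called in any of the 9 comparisons. RPL5 differed by -0.23 after the combination in HT29 and by -0.24 in HTOXAR3 (SE 0.050 in both, adjusted p = 0.0255 and 0.0244), which stayed under 1.2-fold. Its other 3 probes were called lower in HT29, at -0.37, -0.40 and -0.28, and 1 of them in HTOXAR3, at -0.32. RPL11 gave -0.19 and -0.15 after the combination (adjusted p = 0.211 and 0.794) and RPL23, which also binds MDM2, -0.15 in both lines (adjusted p = 0.442 and 0.495). After OXA alone the brightest probes of RPL5, RPL11 and RPL23 lay between -0.17 and 0.017 in both lines, and none was called. RPS6, the small-subunit substrate of S6 kinase, gave -0.094 in HT29 and -0.0092 in HTOXAR3 after OXA (adjusted p = 1 in both). A dim second probe of RPS6 (A_33_P3367795) was called lower after OXA, at -0.42 in HT29 and -0.44 in HTOXAR3 (SE 0.092 in both, adjusted p = 0.0374 and 0.0416), and after the combination in HT29 (-0.49), with -0.17 in HTOXAR3, not called. RPS27A, made as a fusion with ubiquitin, gave -0.0013 and 0.075, and no comparison called it.

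The stalk proteins, which recruit the elongation factors, were not called in any comparison. RPLP0, often used as a reference gene, gave 0.12 after OXA in HT29 and 0.080 in HTOXAR3 (adjusted p = 1 in both). On this probe the OXA arrays lay above the untreated ones in both lines. The other RPLP0 probe gave 0.053 and 0.057, with overlapping arrays in both lines. RPLP1 gave -0.18 and -0.14 (adjusted p = 0.181 and 0.904). RPLP2 gave -0.035 and -0.0070 after OXA and -0.17 between the untreated lines (adjusted p = 0.197).

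Between the untreated lines, RPL22 was the only called member. RPL22 binds RNA outside the ribosome as well, and has a paralog, RPL22L1, whose splicing and level it is known to hold down. The RPL22 probe used read 15.24, 15.35 and 15.23 in HT29 and 14.91, 14.92 and 14.91 in HTOXAR3, lower by 0.36 in HTOXAR3 (log2 difference -0.36, SE 0.062, adjusted p = 0.00668). RPL22L1 read 15.79, 15.76 and 15.74 in HT29 and 17.35, 17.30 and 17.28 in HTOXAR3, higher by 1.55 (SE 0.084, adjusted p = 9.5e-08). Neither gene's arrays overlapped between the lines, and within the slides that held both groups the values were -0.43 and -0.32 for RPL22 and 1.57 and 1.54 for RPL22L1. With the spike-in scaling RPL22 came to -0.49 and was not called.

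OXA brought RPL22L1 down in HTOXAR3 and not in HT29. It read 16.06, 16.06 and 15.96 in HTOXAR3 after OXA and 16.05, 15.97 and 15.90 after the combination, falls of 1.28 and 1.33 (SE 0.084 in both, adjusted p = 2.47e-06 and 4.77e-07). In HT29 it read 15.60, 15.83 and 15.91 after OXA, a difference of 0.017 (adjusted p = 1), and 15.79, 15.61 and 15.52 after the combination. The difference between the lines was -1.30 for OXA (SE 0.12, adjusted p = 0.000248) and -1.21 for the combination (SE 0.12, adjusted p = 0.00108). Treated HTOXAR3 arrays lay between 15.90 and 16.06, where the HT29 arrays lay between 15.52 and 15.91. The basal difference of RPL22L1 and its falls in HTOXAR3 were called under all 4 scalings, but the differences between the lines were not called with the spike-in scaling (-1.29 and -1.15).

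The RPL22 probes did not behave alike. The one used carries an array position on chromosome 14 (chr14:77352724-77352783, GRCh37), while the gene is on chromosome 1, so its signal may include a copy of the gene and is uncertain. The 2 probes placed on chromosome 1 gave basal differences of -0.44 (A_32_P210252, adjusted p = 0.000432) and -0.26 (A_24_P849801, not called). These 2 were called lower after OXA in HT29, at -0.34 and -0.42, and in HTOXAR3, at -0.34 and -0.64, where the probe used gave -0.038 and -0.032. After the combination they gave -0.36 and -0.72 in HT29 and -0.47 and -0.99 in HTOXAR3. A_32_P210252 read 15.54, 15.46 and 15.59 in untreated HT29, 15.23, 15.17 and 15.17 after OXA, 15.11, 15.09 and 15.08 in untreated HTOXAR3 and 14.77, 14.70 and 14.78 after OXA, with no overlap in either line.

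The probe used for RPL22 and the RPL22L1 probe cover 41 bases in common, which are printed with the 13 bases that differ in capitals, to show how far the signals can mix; they agree at 28 of the 41 bases (68.3%). Both lie on the minus strand.
RPL22 A_21_P0011271 (chr14:77352724-77352783): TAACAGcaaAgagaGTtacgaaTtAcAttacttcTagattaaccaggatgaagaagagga
RPL22L1 A_23_P143958 (chr3:170584204-170584263): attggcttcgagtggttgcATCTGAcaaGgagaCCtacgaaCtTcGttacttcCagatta

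**Figure D4:**
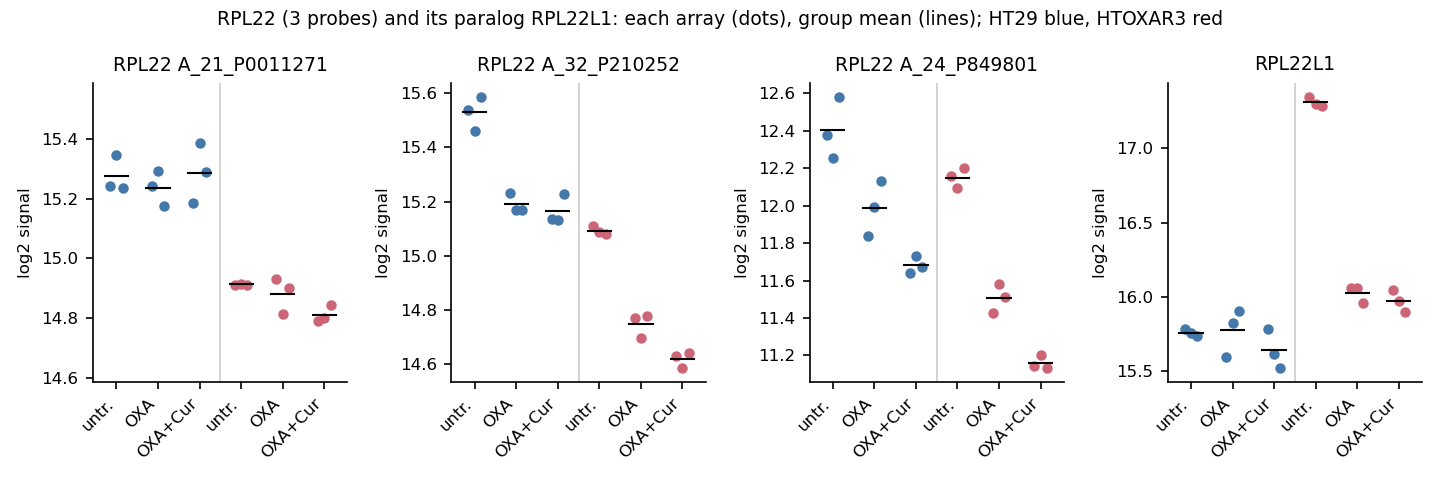
Log2 signal after quantile normalization (y axis, not starting at 0) of the 3 RPL22 probes and the RPL22L1 probe on each of the 18 arrays (dots), with group means (lines). RPL22L1 lies at 17.28 or more on untreated HTOXAR3 arrays and at 16.06 or less on all others, and all 3 RPL22 probes have lower means in untreated HTOXAR3 than in untreated HT29.

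Of the 8 ribosomal protein paralogs listed, RPL22L1 among them, 2 more were called. Of all names, 11.5% were called between the untreated lines and 18.6% after the combination in HT29. RPL7L1 was higher in untreated HTOXAR3 by 0.37 (adjusted p = 0.0057) and lower after the combination in HT29 (-0.29, adjusted p = 0.0296), a call lost in 7 of 17 alternatives, with a value that turned to 0.071 with the spike-ins. RPS27L, a relative of RPS27, was lower in untreated HTOXAR3 (-0.36, adjusted p = 0.000965). Among ribosomal proteins whose names lie outside the rule, GNB2L1 (RACK1) was called, lower after the combination in HT29 (-0.29, adjusted p = 0.00563). Under the spike-in scaling the basal values of RPL7L1 and RPS27L were 0.31 and -0.46, neither called. The value of GNB2L1 after the combination in HT29 was then -0.099, not called.

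With each probe tested on its own, an alternative chosen after the data were seen, 19 of the 169 member probes (11.2%) were called after OXA in HT29 and 17 (10.1%) in HTOXAR3, all lower, against 14.4% and 9.25% of all probes. After the combination 33 (19.5%) and 20 (11.8%) were called, against 17.3% and 16.3%, with 1 higher in each line. The share was thus above that of all probes after OXA in HTOXAR3 and after the combination in HT29, and below it in the others of these 4. Between the untreated lines 11 (6.51%) were called, against 10.6% of all probes, and 7 of the 11 were higher in HTOXAR3. Adding Curcumin called 4 (2.37%) in HT29 and 3 (1.78%) in HTOXAR3, against 4.66% and 7.85% of all probes. The differences between the lines called 1 (0.592%) for OXA and 0 for the combination, against 0.862% and 0.67% of all probes, where 7 member probes had an unadjusted p under 0.05 for the combination and 1 was called with Benjamini-Hochberg adjustment. Counted by gene, 15 members (19.7%) had at least 1 probe called after OXA in HT29 and 13 (17.1%) in HTOXAR3, against 17.1% and 11.2% of all names, and 22 (28.9%) and 15 (19.7%) after the combination, against 20% and 19%; the members have more probes per name than the array as a whole. Between the untreated lines they were 8 (10.5%, against 12.3% of names), for adding Curcumin 4 in HT29 and 3 in HTOXAR3 (5.26% and 3.95%, against 5.7% and 9.47%), and for the difference between the lines in the OXA response 1 (1.32%, against 1.03%). Of the 48 members with more than 1 probe, the one with the most, RPL21, has 9.

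The called share of the member probes differed with their signal. After OXA in HT29, 5 of the 16 member probes with a mean log2 signal up to 10 were called (31.2%), against 9.71% of all probes of that signal. Of the 14 between 10 and 15 there were 2 (14.3%, against 36.2% of all probes there), and of the 139 over 15 there were 12 (8.63%, against 22%). In HTOXAR3 these were 5 of 16 (31.2%, against 6.07%), 4 of 14 (28.6%, against 24.1%) and 8 of 139 (5.76%, against 13.2%). The share thus lay above that of all probes of like signal in the dimmest class and below it in the brightest, with 16 probes in the former and no test of the difference. Median responses of the 3 classes were -0.37, -0.10 and -0.031 in HT29 and -0.34, -0.097 and 0.0029 in HTOXAR3. Signals of different probes cannot be compared as transcript levels, and a probe's class here is only its place in the intensity range.

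**Figure D5:**
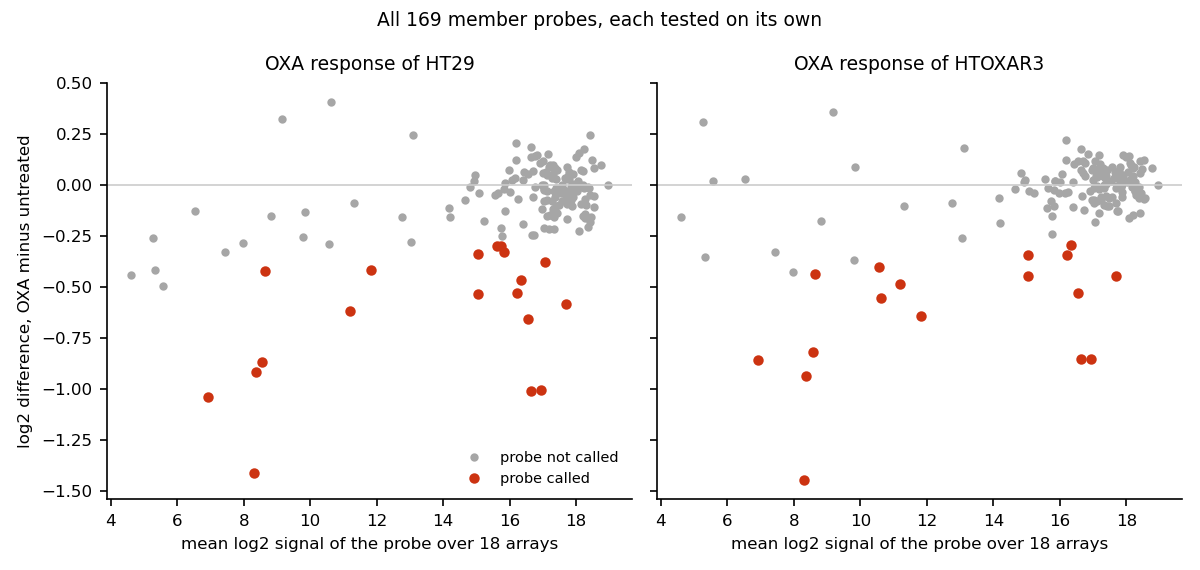
Log2 difference after OXA (y axis) against mean log2 signal over 18 arrays (x axis) for each of the 169 member probes, in HT29 on the left and HTOXAR3 on the right, after quantile normalization. Red probes were called; they lie below 0 on both sides, from a signal of 6.92 upward, and most of the probes over 15 lie close to 0.

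Several of the dimmer probes differed from the bright probe of their gene; RPS29, RPL37, RPS14 and RPS10 are named here after their values were seen. RPS29, a small-subunit protein, has 3 bright probes that gave -0.036 to -0.024 after OXA in HT29, and a probe for the transcript NM_001030001 (A_33_P3282840, chr14:50044074-50044133, GRCh37) that gave -1.41 in HT29 and -1.45 in HTOXAR3 (SE 0.088, adjusted p = 4.47e-07 and 1.57e-06). The latter read 8.73, 8.68 and 8.90 in untreated HT29, 7.22, 7.36 and 7.50 after OXA and 8.07, 8.01 and 8.07 after the combination. Its arrays with Curcumin lay between the others, without overlap, and adding Curcumin raised it by 0.69 in HT29 and 0.80 in HTOXAR3 (adjusted p = 0.00182 and 0.000329). RPL37 probe A_33_P3261246 gave -0.92 and -0.94 after OXA and RPS14 probe A_24_P37939 -0.87 and -0.82, all called, where the brightest probes of both genes gave between -0.10 and 0.0029.

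RPL28 was the only member with probes called in opposite directions in the same comparison. Probe A_33_P3299319 (NM_001136137) read 8.29, 8.37 and 8.24 in untreated HT29, 7.97, 8.27 and 8.20 after OXA and 9.18, 8.96 and 8.76 after the combination. In HTOXAR3 it read 8.96, 8.95 and 8.88 untreated, 8.73, 8.79 and 8.74 after OXA and 9.87, 9.73 and 9.91 after the combination. It was higher after the combination by 0.67 in HT29 and 0.91 in HTOXAR3 (adjusted p = 0.0018 and 0.000116). Probe A_33_P3299314 (NM_001136134) was lower in the same comparisons (-0.57 and -0.55, adjusted p = 0.000206 and 0.000342), and the brightest probe gave -0.14 and -0.17, not called. Basally, 3 of the 4 RPS10 probes were higher in HTOXAR3, by 0.32 to 0.35, and the brightest gave 0.24, not called.

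A list of 15 other genes known for a TOP motif holds elongation and initiation factors and related genes. After OXA in HT29, 5 of the 15 (33.3%, against 15.9% of all names) were lower, among them EEF1D (-0.79), EIF4B (-0.78), EIF3L (-0.42, which turned to 0.050 with the spike-ins) and EEF1B2 (-0.34). In HTOXAR3 only EEF1D was called (6.67%, against 10.2% of names), at -0.42 (adjusted p = 0.00211); this value turned to 0.021 with the spike-ins, and the call was lost when only the compared groups were fitted. After the combination 7 (46.7%, against 18.6% of names) were lower in HT29, among them EEF1D (-0.68), NAP1L1 (-0.61), EIF4B (-0.55) and HNRNPA1 (-0.53), and 4 (26.7%, against 17.5%) in HTOXAR3, NAP1L1 (-0.68), EEF1D (-0.46), HNRNPA1 (-0.37) and NPM1 (-0.30). Adding Curcumin lowered NAP1L1 in both lines (-0.55 and -0.54) and HNRNPA1 in HT29 (-0.31). This HNRNPA1 call was lost in 11 of 17 alternatives, among them leaving out any single array of either group, the slide as a block (-0.32) and the mean of all probes (-0.12). Between the untreated lines TPT1 was higher in HTOXAR3 (0.54) and EEF1B2 and EIF3H lower (-0.43 and -0.37). Every call of this list made with quantile normalization was lost with the spike-in scaling: after OXA in HT29 EEF1D came to -0.41, EIF4B to -0.38, EEF1B2 to -0.039 and TPT1, the fifth, to -0.019, and after the combination the 7 genes lay between -0.49 and -0.075 in HT29 and the 4 between -0.31 and -0.069 in HTOXAR3. With the mean of all probes the NAP1L1 values for adding Curcumin were -0.29 and -0.33, still called. The medians over these 15 genes were -0.22 after OXA in HT29 and -0.15 in HTOXAR3, where those over all names were -0.0082 and 0.0085.

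Among 10 regulators of ribosomal protein genes and their translation, RPTOR encodes the Raptor subunit of mTOR complex 1. It read 11.85, 11.92 and 11.73 in untreated HT29 and 10.78, 10.77 and 10.72 after OXA, a fall of 1.08 (SE 0.058, adjusted p = 1.06e-07). In HTOXAR3 it read 12.04, 12.06 and 12.05 untreated and 12.30, 12.21 and 12.21 after OXA, a difference of 0.19 that was not called. The difference between the lines was 1.27 (SE 0.083, adjusted p = 9.76e-06). With the spike-in scaling the HT29 response (-0.54) and the difference between the lines (1.29) were not called. After the combination RPTOR was lower in HT29 by less (-0.51), and so were MYC (-0.59), RPS6KB1, which encodes S6 kinase (-0.47), and EIF4EBP1 (-0.38), a repressor of cap-dependent translation. With the spike-ins these 4 values were -0.15, -0.35, -0.10 and -0.073, none of them called, and with the mean of all probes MYC (-0.43) and RPS6KB1 (-0.099) were not called. After OXA, RPS6KB1 was lower in HT29 (-0.28), a call lost in 8 of 17 alternatives, with a value that turned to 0.24 with the spike-ins. EIF4EBP1 was also lower after the combination in HTOXAR3 (-0.31) and when Curcumin was added in HT29 (-0.41), where RPTOR was higher (0.57). The HTOXAR3 call of EIF4EBP1 was lost in 10 of 17 alternatives, among them leaving out any single array of either group (-0.35 to -0.30) and the 75th percentile of either signal (-0.25 and -0.27), and its value turned to 0.11 with the spike-ins; the call for Curcumin in HT29 was lost in 7, with the slide as a block among them (-0.39), and the RPTOR call there with the spike-ins (0.38). Between the untreated lines MAX was higher in HTOXAR3 (0.62), and MTOR and RPS6KB2 were lower (-0.65 and -0.28), the latter a call lost in 8 of 17 alternatives. Scaled to the spike-ins, MTOR kept its basal call (-0.71), and MAX (0.55) and RPS6KB2 (-0.36) lost theirs.

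In the list around MDM2, CDKN1A, a cell cycle inhibitor, rose after OXA in HTOXAR3 by 0.88 (SE 0.14, adjusted p = 0.00352) and after the combination by 2.16 in HT29 and 2.48 in HTOXAR3. Adding Curcumin raised it by 2.12 and 1.60. After OXA alone in HT29 it differed by 0.038 (adjusted p = 1), and the difference between the lines in this response was 0.85 (adjusted p = 0.31). With a background offset of 50 the rises were smaller and still called, 0.52 after OXA in HTOXAR3, 1.31 after the combination in HT29 and 1.30 for adding Curcumin in HT29, and the OXA call was lost when only the compared groups were fitted. Whether the rises of CDKN1A have to do with MDM2 or with ribosomal proteins was not tested. MDM4 was lower after the combination in HTOXAR3 (-0.53), a call lost in 7 of 17 alternatives, among them the mean of all probes (-0.18) and 4 that leave out 1 array (-0.50 to -0.48), with -0.11 for the spike-ins, and MDM2 was not called in any comparison. Of 5 chaperones and import factors of ribosomal proteins, LTV1 was lower after the combination in HT29 (-0.35) and HEATR3, which helps RPL5 into the nucleus, in HTOXAR3 (-0.40). The HEATR3 call was lost in 8 of 17 alternatives, which included leaving out any single array of either group (-0.42 to -0.36). With the spike-ins HEATR3 turned to 0.0019, and LTV1 came to -5e-04 and was not called.

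The proteins of the mitochondrial ribosome moved in both directions. Of the 77 names, 11 were higher and 10 lower after OXA in HT29 (27.3% called, against 15.9% of all names), and 8 higher and 8 lower in HTOXAR3 (20.8%, against 10.2%). MRPS6 had the largest rise in both lines, 0.96 and 0.72. MRPL12 had the largest fall in HT29 (-1.94, adjusted p = 6.95e-10), and its response differed between the lines by 1.45 (adjusted p = 4.76e-06). These calls of MRPS6 and MRPL12 were kept with the spike-ins. The median absolute difference of this list after OXA was 0.19 in HT29 and 0.14 in HTOXAR3, against 0.07 and 0.058 for the cytosolic members.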

How the data were processed

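Total RNA of 18 samples was labelled with Cy3 and hybridized to one-colour Agilent HumanV2 arrays, and the deposited intensity values are the spot signals and local backgrounds that the authors' scanner software, Agilent Feature Extraction 10.7.3.1, wrote before any normalization between arrays. Probe coordinates are those of the array files (GRCh37). The series' table of processed log2 values, made by the authors, was not used. Groups came from the sample labels, with 3 biological replicates each. Mean signals were background-corrected with normexp (offset 0), control spots left out, arrays quantile-normalized, outlier-flagged spots set to missing and spots averaged per probe in limma 3.58.1 (R 4.3.3). The probe with the highest mean stood for each gene name. One linear model with 6 group terms over 18 arrays gave moderated tests with Benjamini-Yekutieli adjustment over all gene names; a call needed an adjusted p under 0.05 and a fold above 1.2, as in the study's methods. The used RPS14 probe was missing on 1 array. The number of arrays limits the precision. The fit was tested on simulated data.

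Named were all called members (at most 10 a comparison), RPL5, RPL11, RPL22, RPL23, RPS6, RPS27A and the stalk proteins. Called paralogs, called ribosomal proteins outside the naming rule and members with probes called in opposite directions were named too. Of each other list, at most 4 called genes a comparison were named by size of change, and TPT1 besides for OXA in HT29. The members and lists were chosen with earlier results of these data known. Alternatives were 3 other scalings, offset 50, other probe choices, a filter on dim probes, slide and replicate blocks, other adjustments, a fit on the compared groups alone, and leaving out each array. Same-numbered replicates deviated together (every pair's correlation over 0.1) for OXA in HT29 (0.117 to 0.242) and for Curcumin addition in HTOXAR3 (0.109 to 0.195). So did 2 pairs for OXA in HTOXAR3 and 1 for the combination in HTOXAR3, and none in the other comparisons. Every pair over 0.1 shared a slide, though other pairs that shared a slide lay lower, so replicate and slide cannot be told apart here. Array r, probe positions on another chromosome (4 probes, of RPL13A, RPL21, RPL22 and RPS28) and RefSeq matches (76 of 76 members) were checked. Some members of the gene lists are not reported here.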

Additional observations from a re-analysis of the deposited data

Results flagged for a closer look

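The response to OXA or to the combination differed between HT29 and HTOXAR3 in 8 tests of the difference itself, at unequal OXA doses. RPL22L1 gave -1.30 for OXA and -1.21 for the combination, HTOXAR3 minus HT29. RPTOR gave 1.27 and 0.55 in the same direction of subtraction; the call of 0.55 was lost in 14 of 23 alternatives, among them the slide block, the replicate block, the spike-ins (0.64) and most that leave out 1 array. Of the mitochondrial ribosomal proteins, MRPL12 gave 1.45 and 0.65, and MRPL23 gave 0.78 for OXA. With the spike-in scaling, of these 7 differences only that of MRPL12 for OXA was called. The RPL32 probe A_21_P0000344 gave -0.96 for OXA (SE 0.15, adjusted p = 0.0344 by limma with BY adjustment), whereas the brightest RPL32 probe, A_23_P18142, gave 0.089 and was not called (adjusted p = 1). It read 10.43, 10.49 and 10.08 in untreated HT29 and 10.80, 10.77 and 10.66 after OXA, against 11.12, 11.07 and 10.83 in untreated HTOXAR3 and 10.38, 10.48 and 10.50 after OXA. Treated and untreated arrays did not overlap in either line; the HT29 response of 0.41 was not called (adjusted p = 0.143) and the HTOXAR3 response of -0.56 was (adjusted p = 0.0251).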

How the results depend on the processing

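Called members are given in the order basal, OXA in HT29, OXA in HTOXAR3, combination in HT29 and combination in HTOXAR3, against 1, 6, 4, 9 and 6 as reported. The processed signal at the 75th percentile gave 3, 52, 13, 52 and 25, and 1 for Curcumin addition in HT29. Background-corrected signal at the 75th percentile gave 3, 52, 14, 46 and 24, and 1. Spike-in scaling gave 0, 1, 0, 2 and 0, and 0 for Curcumin addition in HTOXAR3. Names called lower and higher after the combination went from 3264 and 3460 to 373 and 3931 in HT29 and from 3127 and 3195 to 305 and 4114 in HTOXAR3 under it. Each probe alone gave 8, 15, 13, 22 and 15, with 4 and 3 for Curcumin addition in HT29 and HTOXAR3 and 1 for the differential OXA response. The mean of all probes gave 4, 10, 7, 16 and 11 (5.26%, 13.2%, 9.21%, 21.1% and 14.5% of members, against 10.8%, 14.3%, 9.22%, 17% and 16.2% of names). Only the groups compared gave 0, 2, 2, 2 and 2 (names: 3.47%, 3.7%, 1.64%, 5.68% and 8.32%), and 0 for Curcumin addition in HTOXAR3; fewer arrays entered each fit. Curcumin addition in HT29 gave 1 without dim probes, with the slide as a block, and with Benjamini-Hochberg adjustment. No fold minimum gave 14 for the combination in HT29 (18.4%, against 18.9% of names) and 2 for Curcumin addition in HTOXAR3. Leaving out single arrays gave 1 to 1, 6 to 6, 3 to 4, 6 to 9 and 6 to 6; Curcumin addition gave 0 to 1 in HT29 (1 without OXA replicate 1) and 1 to 1 in HTOXAR3, and both differential responses 0 to 0. The replicate block changed no count of called members (1, 6, 4, 9 and 6), and with it the RPTOR differential combination response of 0.55 was not called; that call was also lost without most single arrays (0.50 to 0.57).

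With the spike-in scaling 8 values turned sign. They were RPL36 (0.077), EIF3L (0.050) and RPS6KB1 (0.24) after OXA in HT29, RPS9 (0.048) and EEF1D (0.021) after OXA in HTOXAR3, RPL7L1 (0.071) after the combination in HT29, and EIF4EBP1 (0.11) and HEATR3 (0.0019) after the combination in HTOXAR3. Of 459 recomputed values of called members, 404 kept direction and call, 53 lost the call and 2 turned. Of 942 values of called genes of the other lists without the mitochondrial one 786 kept both, 150 lost the call and 6 turned; TPT1 after OXA in HT29 (8 of 17 alternatives) lost it without any single array of either group. Of the mitochondrial list only MRPL12, MRPL23 and MRPS6 were recomputed, and 292 of their 307 values kept both and 15 lost the call, with the spike-ins or with only the groups compared. Apart from the constructions named above, the cause was not tested. Probes near background carry less signal to compare, and 3 of the 169 member probes were not above background on all arrays.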
